A study of Mus musculus with 6 samples.

Results

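Small structural non-coding RNA genes were examined in the left ventricle of adult mice exposed to caffeine before birth. These are the genes annotated as small nuclear RNA (snRNA), small nucleolar RNA (snoRNA), small Cajal body RNA (scaRNA), miscellaneous RNA (misc_RNA), ribosomal RNA (rRNA) or ribozyme, with at least 10 counts summed over 6 hearts. The genes were chosen by their summed count, which left 36 of the 3847 genes with these annotations, and of 43629 genes in the count files. That sum is a description and supports nothing. Pregnant CD-1 dams were injected intraperitoneally once a day from embryonic day (E) 6.5 to 9.5 with vehicle (0.9% NaCl) or with 20 mg/kg caffeine, and one field of the labels ends the treatment at E10.5. RNA came from the left ventricle of their F1 male offspring at 1 year of age, with 3 vehicle hearts and 3 caffeine hearts. The dam of each mouse was not given, so animals of a group may share a litter and p-values measure only the spread between these hearts. Libraries were made from poly(A)-selected RNA and sequenced as single reads of 75 bases.

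Small structural RNAs act as RNA and code for no protein. Spliceosomal snRNAs pair with introns and form the core of the splicing machinery, snoRNAs and scaRNAs guide the chemical modification of ribosomal and spliceosomal RNA, and the RNA subunits of RNase P and RNase MRP belong to enzymes that cut precursor RNAs. The 7SK RNA holds the elongation factor P-TEFb in an inactive complex. Most of these RNAs have no poly(A) tail, so selection for poly(A) typically retains little of them. How the reads counted here came through the selection was not measured. In heart, as in other tissues, small structural RNAs serve every cell type.

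Of the 3847 genes, 479 had a count in at least 1 heart and 3368 had none. The 36 genes with 10 or more counts were 12 snoRNA, 9 snRNA, 8 scaRNA, 4 misc_RNA and 3 ribozyme genes, and no rRNA gene reached that sum. They held 8538 counts in all, 85.3% of them in the top 6 genes. Library totals ran from 9228359 to 10483101 counts in vehicle hearts and from 7613011 to 9153997 in caffeine hearts, so 3 counts stood for 0.284 to 0.304 and for 0.339 to 0.42 counts per 1000000 (CPM). The small RNA genes held 0.00935% to 0.0113% of the counts of a vehicle heart and 0.0172% to 0.0254% of those of a caffeine heart. Summed markers of ventricular cardiomyocytes lay between 50500 and 59700 CPM in every heart and atrial markers between 0.84 and 2.05 CPM, in tissue labelled as left ventricle. The 3 fibroblast markers summed to 573 to 669 CPM in vehicle hearts and to 700 to 862 CPM in caffeine hearts, with log2 fold changes of 0.38 for Col1a1 (adjusted p 0.425), 0.28 for Dcn (0.446) and 0.21 for Pdgfra (0.636) by edgeR's quasi-likelihood test with Benjamini-Hochberg adjustment. The 5 skeletal muscle markers, 2 of them without a count, summed to 0.662 to 0.879 CPM in vehicle hearts and to 0 to 0.339 CPM in caffeine hearts. The sums of the endothelial, macrophage and red blood cell markers overlapped between the groups. The part of any of these marker lists in the results below was not tested. In whole tissue, fewer cells of a type and less RNA per cell cannot be told apart.

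Caffeine hearts had higher summed levels than vehicle hearts in 4 of the 5 annotation classes that had members. Levels are CPM scaled by trimmed mean of M-values (TMM), the sum is over the members of a class, and a sum carries no test. The 3 ribozyme genes summed to 15.4, 19.7 and 8.61 CPM in vehicle hearts and to 64.5, 48.2 and 40.9 CPM in caffeine hearts. These means of 14.6 ± 5.59 and 51.2 ± 12.1 (SD, n = 3) differed 3.51-fold, with every caffeine heart above every vehicle heart. The 4 misc_RNA genes, almost all of it the 7SK gene Rn7sk, summed to 40.8, 30.4 and 18 CPM against 109, 97.7 and 65.1 CPM, a 3.05-fold difference without overlap. For the 9 snRNA genes the values were 2.15, 4.64 and 3.95 CPM against 20.6, 16.6 and 5.28 CPM. The groups did not overlap and the ratio of the means was 3.95, but the third caffeine heart lay close to the vehicle range. The gene Gm22513, whose own groups overlapped, held 77, 58 and 2 of the 147, 147 and 45 snRNA counts of the caffeine hearts. The 12 snoRNA genes gave 4.98, 6.25 and 3.14 CPM against 14.3, 8.69 and 9.5 CPM, or 2.26-fold, again without overlap. Snord17 alone held 12, 23 and 4 of their 51, 66 and 31 counts in vehicle hearts. In caffeine hearts it held 61, 39 and 51 of 102, 77 and 81. When all genes with 10 or more counts were fitted, 7 of the 12 had a positive and 5 a negative fold change.

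The scaRNA class stood differently in its sum. Its 8 genes summed to 52.5, 45.0 and 53.7 CPM in vehicle hearts and to 61.5, 51.4 and 51.1 CPM in caffeine hearts. The groups overlapped, and the means of 50.4 ± 4.68 and 54.6 ± 5.9 (SD, n = 3) had a ratio of 1.08. Most of these counts were of Scarna2 and Gm22009. Gene by gene, caffeine hearts all lay above vehicle hearts in 3 of the 8 scaRNA genes and all below in none. They lay above in 3 of 9 snRNA, 3 of 12 snoRNA, 1 of 4 misc_RNA and 3 of 3 ribozyme genes. In the scaRNA gene Scarna13 and the snoRNA genes Gm25117 and Gm22771, the gap was below the level of 3 counts. Of all genes with 10 or more counts, 6.98% lay above and 6.55% below. Whether the classes differ from each other in their response was not tested. Summed over all 36 genes, the level was 116, 106 and 87.4 CPM in vehicle hearts and 270, 223 and 172 CPM in caffeine hearts, which is 2.15-fold.

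**Figure D1:**
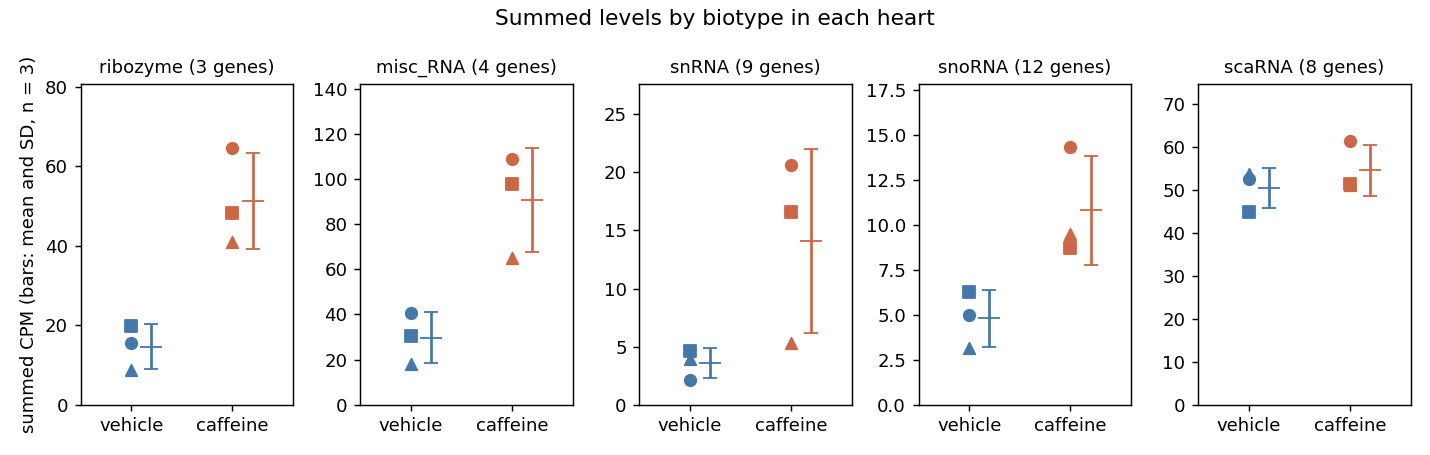
Summed level of each class in each heart, in CPM on linear axes that start at 0 and differ between panels. Circles, squares and triangles are replicates 1, 2 and 3 of vehicle (blue) and caffeine (orange), and the bars give the mean and SD of 3 hearts. Caffeine hearts lay above vehicle hearts in every class except scaRNA, where the groups overlapped.

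For single genes, every gene in the files that passed a filter on low counts was fitted, and a gene was called at an adjusted p below 0.05 and a fold change above 1.5. Of the 36 genes, 12 passed the filter and 24 did not. The filter asks for about 1.09 CPM in at least 3 hearts. It was met in all 6 hearts by 7 of the 12 genes, but Gm25360 and Gm24407 met it in no vehicle heart and so entered through the caffeine hearts, and Snord17, Gm22513 and Gm24265 met it in only some vehicle hearts. Counts over the 12 are therefore a description. Among them 1 gene was called higher in caffeine hearts, Rpph1, where 0.084% of the 13092 genes fitted were called higher. None of the 12 was called lower, where 0.0229% of all genes were. None of the 12 was lower at an unadjusted p below 0.05 by edgeR's quasi-likelihood test. The exact test of edgeR called 8 of the 12 higher and none lower (0.466% and 0.252% of all genes), and DESeq2 called 6 higher and none lower (0.298% and 0.214%). At an unadjusted p below 0.05, 9 of the 12 were higher, against a background of 4.42% of all genes higher and 4.4% lower. The median log2 fold change was 1.64 over the 12 and 0.0 over all genes fitted.

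Without any filter other than the sum of 10 counts, caffeine hearts all lay above vehicle hearts in 13 of the 36 genes and all below them in none. Over the 16223 genes in the files with that sum, 6.98% lay above and 6.55% below. In Scarna13, Gm25117 and Gm22771, which are among the 13, the gap between the groups was below the level of 3 counts. The highest vehicle and lowest caffeine heart had 7 and 6 counts in Scarna13, and 2 and 2 in each of the others. Among the 12 genes that were fitted, 9 lay above and none below, against 7.11% and 7.12% of all genes fitted. The third vehicle heart was the lowest of the 6 hearts in 9 of the 13 genes. The highest heart was caffeine 1 in 7 of the 13, caffeine 2 in 4 and caffeine 3 in 2.

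**Figure D2:**
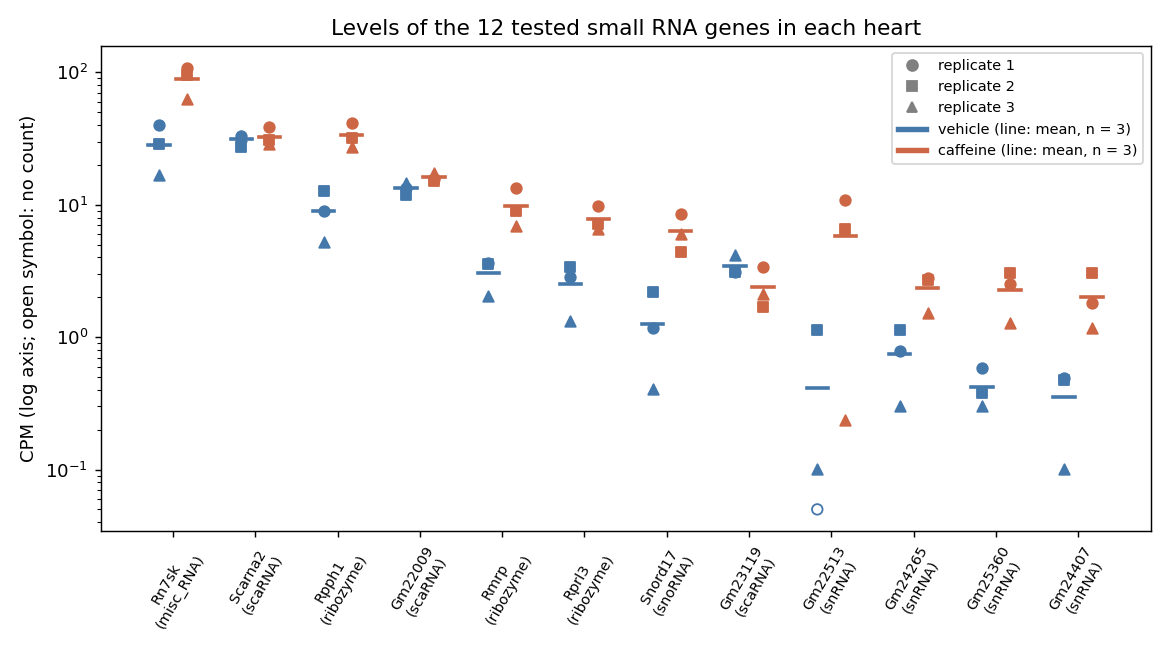
CPM of the 12 fitted genes in each heart, on a log axis, with vehicle in blue, caffeine in orange, symbols for replicates 1 to 3, and a line at each mean of 3 hearts. The open symbol is a heart with no count. Caffeine hearts lay above vehicle hearts in 9 of the 12 genes, and Scarna2, Gm23119 and Gm22513 overlapped.

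The RNase P RNA gene Rpph1 (ENSMUSG00000092837, GRCm38 chr14:50807449-50807767, minus strand, 319 bases) is the catalytic subunit that trims the 5′ ends of precursor tRNAs. Its level was 8.99, 12.7 and 5.27 CPM in vehicle hearts and 41.4, 31.9 and 27.4 CPM in caffeine hearts. The lowest caffeine heart was above the highest vehicle heart. The log2 fold change was 1.89 (SE 0.26), with an adjusted p of 0.0242 by edgeR's quasi-likelihood test with Benjamini-Hochberg adjustment, and Rpph1 rose. The call was lost without caffeine replicate 1 (log2 fold change 1.72, adjusted p 0.0903 by the same test) and without caffeine replicate 3 (2.02, adjusted p 0.0616). An exact two-sided permutation test of log2 CPM gave p = 0.1, the smallest that 20 arrangements of 3 against 3 hearts can give. Rpph1 shares exon sequence on the same strand with Ccnb1ip1, which held 41 counts in all and was not fitted, and 64.9% of its stretches of 75 bases also occur there.

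Rprl3 (GRCm38 chr8:3803069-3803358, minus strand, 290 bases) is named as a relative of the RNase P RNA. The first 150 bases of both are given, from the GRCm38 genome, to show how far reads could tell the genes apart, and the letters that found no match in the alignment of the pair are in capitals.
Rpph1: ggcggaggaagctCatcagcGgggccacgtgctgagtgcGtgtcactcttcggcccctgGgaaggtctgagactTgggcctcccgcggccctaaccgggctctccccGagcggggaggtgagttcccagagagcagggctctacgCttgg
Rprl3: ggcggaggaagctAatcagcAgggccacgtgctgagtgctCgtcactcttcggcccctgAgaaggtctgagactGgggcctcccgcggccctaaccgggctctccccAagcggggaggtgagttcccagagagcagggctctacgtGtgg
In this stretch each has 7 unmatched letters, and over their whole length the genes were 77.1% identical. No stretch of 75 bases of Rprl3, the length of a read, was found in another annotated gene. Its closest relative was Rprl2, at 92.1% identity, which had no count.

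Rprl3 was at 2.83, 3.41 and 1.32 CPM in vehicle hearts and at 9.80, 7.22 and 6.57 CPM in caffeine hearts. As for Rpph1, the groups did not overlap and the third vehicle heart was lowest. The log2 fold change was 1.62 (SE 0.31), and the adjusted p of 0.102 by edgeR's quasi-likelihood test with Benjamini-Hochberg adjustment did not pass. The other annotated relative, Rprl1, had no count.

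Rmrp (GRCm38 chr4:43492788-43493058, minus strand, 271 bases) is the RNA of RNase MRP, which cuts precursor ribosomal RNA. Its values were 3.61, 3.6 and 2.03 CPM against 13.3, 9.03 and 6.92 CPM. The groups did not overlap, the log2 fold change was 1.64 (SE 0.29) and the adjusted p was 0.0745 by edgeR's quasi-likelihood test with Benjamini-Hochberg adjustment. An exon of Ccdc107 lies over it on the other strand. A second annotated entry of Rmrp, absent from the count files, lies over it on the same strand. Of its stretches of 75 bases, 100% occur in other annotated genes, 2 in number. The library kit does not mark strand, so reads of Rmrp and of Ccdc107 there cannot be told apart. Ccdc107 itself had 1721 counts and a log2 fold change of 0.09 (SE 0.17, adjusted p 0.927 by the same test).

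The genes of the 11 protein subunits of RNase P and RNase MRP were all fitted. None was called, none had an unadjusted p below 0.05 by edgeR's quasi-likelihood test, none was called by its exact test, and 6 were higher and 5 lower. Their median log2 fold change was 0.01, beside 0.0 over all genes. The largest values were those of Pop1 (0.58, SE 0.29, adjusted p 0.615 by edgeR's quasi-likelihood test with Benjamini-Hochberg adjustment) and Rpp38 (0.51, SE 0.24, adjusted p 0.589), and caffeine hearts lay above vehicle hearts for both. These proteins bind the RNAs and shape the enzymes.

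The 7SK RNA gene Rn7sk (GRCm38 chr9:78175303-78175633, minus strand, 331 bases) held the most counts of the 36 genes, 3036 in all. Its last 200 bases, positions 132 to 331, are given from the GRCm38 genome because this gene carries the largest share of the counts. Capitals mark the bases that lie in no stretch of 75 bases found in another annotated gene.
Rn7sk: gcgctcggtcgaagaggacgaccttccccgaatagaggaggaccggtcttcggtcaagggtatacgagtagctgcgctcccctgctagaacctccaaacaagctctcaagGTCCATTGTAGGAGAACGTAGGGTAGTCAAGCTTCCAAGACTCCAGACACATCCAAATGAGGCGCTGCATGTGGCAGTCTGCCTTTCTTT
Of its stretches of 75 bases, 65.0% also occur in other annotated genes, 4 in number, and these cover positions 1 to 241. Some of its reads could therefore have been split among copies or set aside. The closest copy was Gm23037 at 89.1% identity.

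Rn7sk was at 39.8, 28.7 and 16.7 CPM in vehicle hearts and at 108, 96.2 and 62.9 CPM in caffeine hearts. The lowest caffeine heart was above the highest vehicle heart, and the means were 28.4 ± 11.5 and 89.1 ± 23.5 CPM (SD, n = 3). The log2 fold change was 1.65 (SE 0.27). The adjusted p was 0.0584 by edgeR's quasi-likelihood test with Benjamini-Hochberg adjustment, just above the threshold of 0.05, and 0.0356 when all 16223 genes with 10 or more counts were fitted. Rn7sk is therefore not counted as called. The misc_RNA members Gm26407 and Gm23833 held 20 and 18 counts, too few to be fitted, and their groups overlapped.

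The genes of the 7 proteins of the 7SK complex and of P-TEFb had a median log2 fold change of 0.08. None was called and none had an unadjusted p below 0.05 by edgeR's quasi-likelihood test, while 6 were higher and 1 was lower. Hexim2, an inhibitor of P-TEFb, had the largest value, 0.52 (SE 0.37, adjusted p 0.748 by that test with Benjamini-Hochberg adjustment). Ccnt2, a cyclin of P-TEFb, was next at 0.12 (SE 0.15, adjusted p 0.882).

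Spliceosomal RNAs were represented by 9 snRNA genes. By the letters of their 5′ ends, 1 was U1, 3 were U2, 2 were U4 and 3 were U6, among 36 U1, 16 U2, 9 U4 and 248 U6 genes with the same start. The 4 that were fitted are shown from the GRCm38 genome, since near copies decide what their counts mean. In the U1 gene Gm22513 (chr12:54696782-54696945, plus strand) the capitals mark the letters that pair with a 5′ splice site and the site bound by Sm proteins. In the U2 gene Gm25360 (chr1:72226240-72226430, plus strand) they mark the letters that pair with the branch site and the Sm site.
Gm22513: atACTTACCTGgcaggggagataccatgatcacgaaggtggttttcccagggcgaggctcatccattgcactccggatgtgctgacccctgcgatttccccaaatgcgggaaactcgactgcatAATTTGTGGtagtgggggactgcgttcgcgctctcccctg
Gm25360: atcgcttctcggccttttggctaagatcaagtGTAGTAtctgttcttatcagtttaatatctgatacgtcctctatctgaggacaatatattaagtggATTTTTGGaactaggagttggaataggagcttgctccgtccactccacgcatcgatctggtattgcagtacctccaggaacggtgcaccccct
The letters ACTTACCTG are present in 3.98% of the annotated snRNA genes and the Sm letters ATTTNTGG in 7.52%, searched on the gene's own strand. A match of letters is a description and no evidence of binding. Of the 9 members, 1 held the first and 4 held the second.

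The U4 genes Gm24265 (GRCm38 chr5:115489459-115489599) and Gm24407 (GRCm38 chr5:115490254-115490394) lie next to each other on the plus strand. They differ by 2 substitutions, G88A and C99A, counted from 1 at the 5′ end with the base of Gm24265 first, and the capitals mark these positions.
Gm24265: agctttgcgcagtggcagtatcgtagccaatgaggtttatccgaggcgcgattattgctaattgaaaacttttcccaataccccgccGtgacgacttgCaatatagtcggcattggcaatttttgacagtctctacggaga
Gm24407: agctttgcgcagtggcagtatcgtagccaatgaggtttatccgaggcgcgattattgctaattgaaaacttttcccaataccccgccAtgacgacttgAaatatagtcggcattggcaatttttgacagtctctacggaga
The pair is 98.6% identical, and of the stretches of 75 bases in each, 19.4% occur in the other. The rest hold at least 1 of the differing letters.

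Gm24265 was at 0.782, 1.14 and 0.304 CPM in vehicle hearts and at 2.80, 2.71 and 1.52 CPM in caffeine hearts. Gm24407 was at 0.488, 0.473 and 0.101 CPM against 1.82, 3.05 and 1.17 CPM. In both U4 genes the caffeine hearts lay above the vehicle hearts, and the third heart of each group was the lowest of its group. The log2 fold changes were 1.62 (SE 0.44, adjusted p 0.269) and 2.46 (SE 0.54, adjusted p 0.151) by edgeR's quasi-likelihood test with Benjamini-Hochberg adjustment, and neither passed. U4 pairs with U6 and keeps it inactive until the spliceosome is activated.

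The U2 gene Gm25360 was at 0.586, 0.379 and 0.304 CPM in vehicle hearts and at 2.52, 3.05 and 1.29 CPM in caffeine hearts. The groups did not overlap, the log2 fold change was 2.39 (SE 0.45) and the adjusted p was 0.102 by edgeR's quasi-likelihood test with Benjamini-Hochberg adjustment. In the other U2 members the groups overlapped. Gm25813, which differs from Gm25360 by the 4 substitutions G95A, C109G, G131C and T154C, had counts of 3, 2 and 2 in vehicle hearts and of 8, 2 and 0 in caffeine hearts. Gm22973, 94.8% identical to Gm25360, had counts of 0, 7 and 13 against 4, 5 and 1. Neither was fitted.

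The U1 gene Gm22513 had the largest standard error of the 12 fitted members. Its level was 0, 1.14 and 0.101 CPM in vehicle hearts and 10.8, 6.55 and 0.235 CPM in caffeine hearts. Caffeine hearts 1 and 2 were high, and caffeine heart 3 lay within the vehicle range. The log2 fold change of 3.73 (SE 1.07, adjusted p 0.29 by edgeR's quasi-likelihood test with Benjamini-Hochberg adjustment) did not pass, and it ran from 2.98 to 6.50 when 1 heart was left out. There were 33 other annotated genes at 90% identity or more, so counts of single U1 genes are uncertain. The 3 U6 genes Gm23264, Gm24592 and Gm25321 lie in introns on the other strand and held 20, 11 and 11 counts.

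Of the genes of 23 listed proteins of the spliceosomal particles, 21 were fitted, with 13 higher, 8 lower and a median log2 fold change of 0.03. None was called, and none had an unadjusted p below 0.05 by edgeR's quasi-likelihood test. Lsm4, a protein of the ring that binds U6, was at -0.26 (SE 0.13, adjusted p 0.599 by edgeR's quasi-likelihood test with Benjamini-Hochberg adjustment). Snrpb2, a U2 protein, was at 0.23 (SE 0.19, adjusted p 0.79).

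Snord17 (GRCm38 chr2:144265979-144266216, minus strand, 238 bases) was the only snoRNA gene that was fitted. It lies in an intron of Snx5 on the same strand and belongs to the box C/D kind, which guides 2′-O-methylation. Its sequence from the GRCm38 genome shows the box C and box D letters, TGATGA and CTGA, in capitals.
Snord17: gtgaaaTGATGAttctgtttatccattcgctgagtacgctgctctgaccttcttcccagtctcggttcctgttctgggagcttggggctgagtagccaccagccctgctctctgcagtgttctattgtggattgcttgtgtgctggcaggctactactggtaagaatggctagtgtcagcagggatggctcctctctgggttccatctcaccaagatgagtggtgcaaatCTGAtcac
On the gene's own strand, TGATGA was present in 25.8% of the annotated snoRNA genes and in 3 of the 12 members. CTGA within the last 12 bases was present in 29.9% and in 4 of the 12.

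Snord17 was at 1.17, 2.18 and 0.405 CPM in vehicle hearts and at 8.54, 4.4 and 5.98 CPM in caffeine hearts. The groups did not overlap, and the log2 fold change was 2.29 (SE 0.44, adjusted p 0.102 by edgeR's quasi-likelihood test with Benjamini-Hochberg adjustment). Its host Snx5 was at 0.21 (SE 0.09, adjusted p 0.522). The difference between the gene and its host was not tested.

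In the box C/D snoRNA gene Snord104, of 70 bases and so shorter than a read, levels were 0.586, 0.946 and 1.01 CPM against 1.40, 0.339 and 0.938 CPM. Here the groups overlapped widely. The other snoRNA members held 10 to 39 counts. The U3 gene Rnu3a, whose RNA acts in the first cuts of precursor ribosomal RNA, held 15.

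The genes of all 8 core proteins of snoRNA particles found in the files had a positive fold change, with a median of 0.10 on the log2 scale. Some were near 0, such as Nop56 at 0.01 (SE 0.14). None was called and none had an unadjusted p below 0.05 by edgeR's quasi-likelihood test. Nhp2 was at 0.32 (SE 0.15, adjusted p 0.581 by edgeR's quasi-likelihood test with Benjamini-Hochberg adjustment) and the methyltransferase Fbl at 0.29 (SE 0.36, adjusted p 0.882). Of the spliced RNAs of the Snhg and Gas5 kind that host snoRNAs, 6 were fitted, with a median of 0.26 and none called. Among them Snhg5 was at -0.69 (SE 0.37, adjusted p 0.644) and Snhg6 at 0.52 (SE 0.38, adjusted p 0.76).

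The scaRNA genes guide modification of spliceosomal RNAs in Cajal bodies. Scarna2 (GRCm38 chr3:108554338-108554751, minus strand, 414 bases) was the longest member and held 1753 counts. It was at 33.1, 27.5 and 33.2 CPM in vehicle hearts and at 38.6, 31.0 and 28.6 CPM in caffeine hearts. The groups overlapped, with a log2 fold change of 0.06 (SE 0.13, adjusted p 0.942 by edgeR's quasi-likelihood test with Benjamini-Hochberg adjustment), and the sign turned under other settings. No stretch of 75 bases of Scarna2 occurs in another annotated gene.

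Gm22009 (GRCm38 chr3:69085105-69085447, minus strand), in an intron of Kpna4, was at 13.5, 11.8 and 14.6 CPM against 15.8, 15.1 and 17.4 CPM. These groups did not overlap, but the difference was small, at a log2 fold change of 0.28 (SE 0.14, adjusted p 0.605 by edgeR's quasi-likelihood test with Benjamini-Hochberg adjustment). Kpna4 was at -0.11 (SE 0.11, adjusted p 0.838). Gm23119 was at 3.13, 3.12 and 4.15 CPM against 3.36, 1.69 and 2.11 CPM, with overlap, and was the single fitted member below 0, at -0.56 (SE 0.31, adjusted p 0.653).

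Of the scaRNA genes too low to be fitted, Scarna17 was at 1.07, 1.23 and 0.81 CPM in vehicle hearts and at 0.98, 0.677 and 0.469 CPM in caffeine hearts. Its groups overlapped, with the caffeine hearts in the lower part of the range. Scarna13, in an intron of Snhg10, was at 0.488, 0.662 and 0.203 CPM against 1.26, 0.677 and 0.821 CPM, without overlap. Its raw counts did overlap, at 5, 7 and 2 against 9, 6 and 7. The misc_RNA gene Vis1 had 0.684, 0.852 and 0.912 CPM against 0.42, 0.677 and 1.41 CPM, with overlap.

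**Figure D3:**
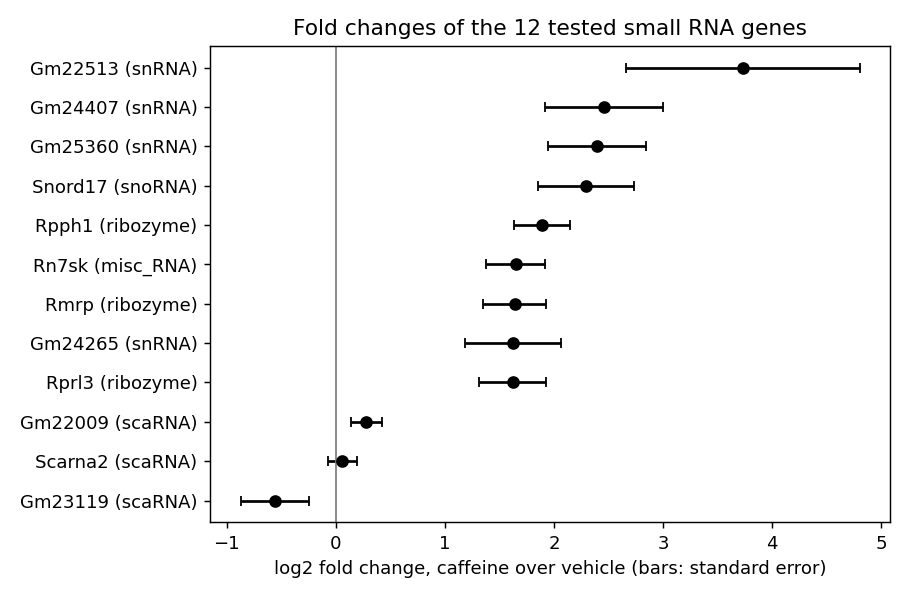
Log2 fold change of caffeine over vehicle for the 12 fitted genes, with bars of 1 standard error from the edgeR fit of all 13092 genes. The ribozyme, misc_RNA, snRNA and snoRNA genes lay between 1.62 and 3.73, and the 3 scaRNA genes lay between -0.56 and 0.28.

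The 24 genes that were not fitted held 10 to 49 counts each. When all genes with 10 or more counts were fitted, 14 of the 24 had a positive and 10 a negative fold change, 2 had an unadjusted p below 0.05 and none was called by edgeR's quasi-likelihood test. That test called 2 of all 36 members higher, Rpph1 and Rn7sk, where 0.074% of the 16223 genes were called higher and 0.037% lower, and it called no member lower. Caffeine hearts lay above vehicle hearts in 4 of the 24 and below them in none, against 6.98% and 6.55% of all genes with that sum. Besides Scarna13 these were Gm25395, Gm25117 and Gm22771, named here after their values were seen. In Scarna13, Gm25117 and Gm22771 the gap between the groups was below the level of 3 counts. The scaRNA gene Gm25395 was at 0.391, 0.0946 and 0.304 CPM in vehicle hearts and at 0.84, 1.24 and 1.17 CPM in caffeine hearts. Gm22771 and Gm23823 had the smallest sum that the rule admits, 10 counts. Gm22771 had counts of 0, 0 and 2 in vehicle hearts and 2, 2 and 4 in caffeine hearts, and Gm23823 had 2, 3 and 3 against 0, 2 and 0. Just outside, with a sum of 9, the rRNA gene Gm23257 had 0, 2 and 2 against 1, 0 and 4, and the snoRNA gene Gm25076 had 1, 2 and 1 against 1, 1 and 3.

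Several well-known small RNAs were nearly absent from these libraries. The 7SL RNA genes Rn7s1 and Rn7s2, whose RNA is the scaffold of the signal recognition particle, had 1 and 2 counts over all 6 hearts. The Y RNA genes Rny1 and Rny3 had 8 and 5, the telomerase RNA gene Terc had 4, the vault RNA gene Vaultrc5 had 1 and the U2 gene Rnu2-10 had 1. The genes Rnu11, Rnu12, Rnu73b, Rn5s, Snord118 and Scarna10 had a count of 0. No counted identifier carried the symbol Snord3a in the annotation used, so it was not analysed here. At these depths 3 counts in a heart stood for at most 0.42 CPM, so differences in these genes were not detectable. Of the genes of 8 listed signal recognition particle proteins, 6 were fitted, with Srp68 at -0.06 and Srp54c at -0.04. None of the 6 was called or had an unadjusted p below 0.05 by edgeR's quasi-likelihood test. Trove2 and Ssb, the genes of Y RNA binding proteins, were at 0.09 and -0.01.

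The length of a gene went with its counts. Of the 432 genes of 200 bases or more, 16 (3.7%) reached 10 counts, and these 432 genes held 7824 counts. From 150 to below 200 bases it was 4 of 294 (1.36%), from 100 to below 150 bases 12 of 2371 (0.506%), and below 100 bases 4 of 750 (0.533%). Libraries were made from fragments of about 200 nt, so short RNAs may be lost, and the part of fragment length in these counts was not tested.

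**Figure D4:**
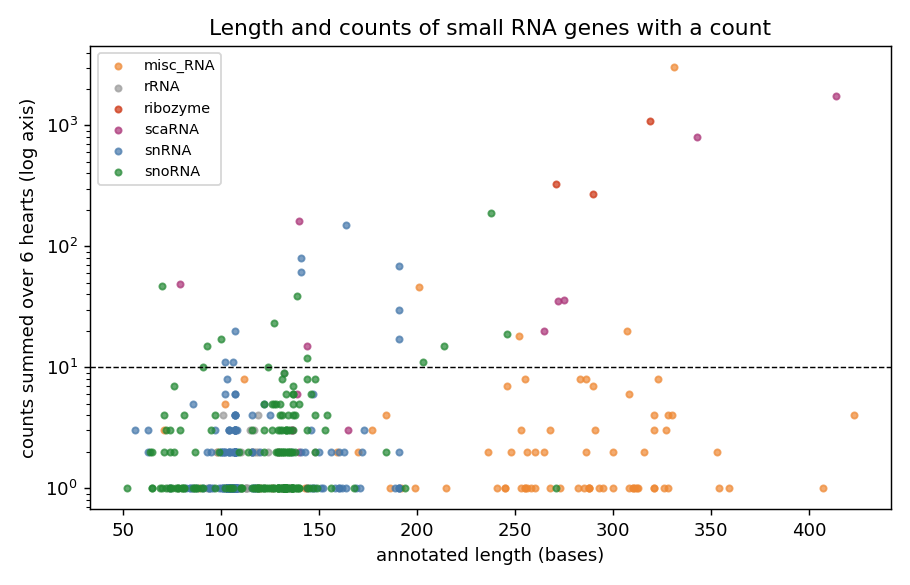
Annotated length in bases against counts summed over 6 hearts (log axis) for the 479 small RNA genes with a count, coloured by annotation. The dashed line is the sum of 10 counts that chose the 36 genes. Genes with the most counts were longer than 200 bases.

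Position was not used to choose the genes. Of the 36, 13 lie in an intron of another gene on the same strand, 4 in an intron on the other strand and 19 outside introns. Genes that overlap an exon of another gene, such as Rpph1, Rmrp, Snora28 and Gm23455, were placed in the last group, except Scarna13. Scarna13 overlaps Mir3069 but also lies in an intron of Snhg10, and was placed in the first group. Most of the summed difference lay in the last group, which summed to 98.0, 87.7 and 68.7 CPM in vehicle hearts and to 240, 197 and 143 CPM in caffeine hearts. The 13 genes in same-strand introns summed to 17.7, 17.3 and 16.8 CPM against 29.8, 24.9 and 28.0 CPM, also without overlap. For 12 of them the host was fitted. These 10 hosts had log2 fold changes from -0.24 to 0.32 and none was called, while 9 of the 12 members had a positive fold change.

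RNA polymerase III transcribes Rn7sk, Rpph1, Rmrp and U6, among others. The genes of its 26 subunits and factors in the files were all fitted, 12 were higher and 14 lower, and the median log2 fold change was -0.01. None was called, and 2 were higher and 1 lower at an unadjusted p below 0.05 by edgeR's quasi-likelihood test. Polr3e, a subunit, was at -0.46 (SE 0.19, adjusted p 0.534 by edgeR's quasi-likelihood test with Benjamini-Hochberg adjustment), and Gtf3a, the factor of 5S rRNA genes, was at 0.39 (SE 0.17, adjusted p 0.548). Over the 7 lists of proteins that bind, modify or transcribe small RNAs, 81 genes were fitted and none was called, by the quasi-likelihood or by the exact test.

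Other RNA without poly(A) tails or held in the nucleus was measured beside them. Genes known to collect reads of ribosomal RNA took 12.5%, 11.3% and 9.54% of the counts of the vehicle hearts and 19.8%, 17.4% and 16.0% of those of the caffeine hearts. The groups did not overlap, and the order of the hearts was that of the summed small RNA level, from vehicle 3 at the bottom to caffeine 1 at the top. All 6 such genes lay higher in every caffeine heart, as 7.11% of all fitted genes did, while 7.12% lay lower. Their median log2 fold change was 0.63, and 1 of them, Gm26917, rose (0.63, adjusted p 0.0301 by edgeR's quasi-likelihood test with Benjamini-Hochberg adjustment). That call was lost without vehicle replicate 2 (adjusted p 0.0807 by the same edgeR test), vehicle replicate 3 (0.0657), caffeine replicate 1 (0.0903) or caffeine replicate 3 (0.0938), and with library size only, where its log2 fold change was 0.54. The largest value was that of Gm42418 at 1.02 (SE 0.22, adjusted p 0.135), followed by Mir6236 at 0.65 (SE 0.13, adjusted p 0.122). The part of this share in the small RNA result was not tested.

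**Figure D5:**
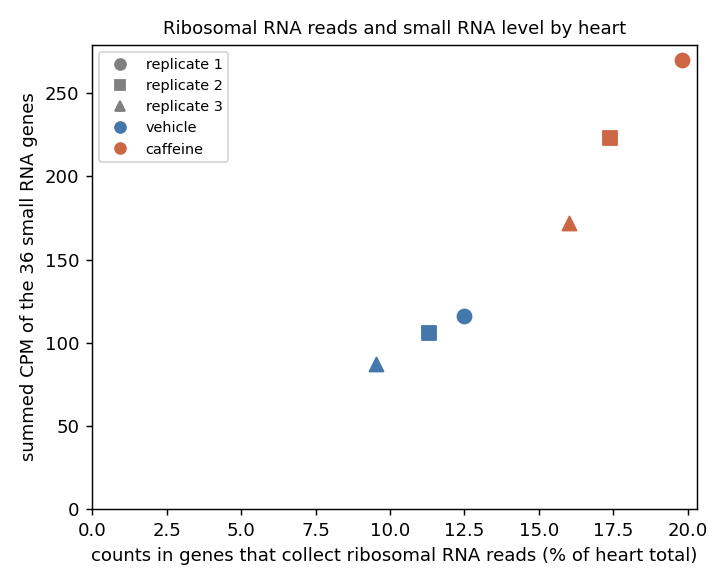
Share of each heart's counts in genes that collect ribosomal RNA reads (x axis, percent) against the summed CPM of the 36 small RNA genes (y axis), with both axes from 0. Each point is 1 heart, vehicle in blue and caffeine in orange. Vehicle hearts lay at 9.54% to 12.5% and caffeine hearts at 16.0% to 19.8%, in the same order on both axes.

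The small RNA genes were also set against the counts of those rRNA-collecting genes instead of all counts. These counts were themselves 1.69-fold higher in caffeine hearts, so this scale lowers every ratio, and the median ratio over all 13092 fitted genes was 0.587, which is the value of a gene with no difference on the CPM scale. On it 0.137% of the fitted genes had all caffeine hearts above all vehicle hearts and 73.8% had them below. Per 1000000 such counts, the 36 genes together were at 905, 975 and 980 in vehicle hearts and at 1280, 1240 and 1080 in caffeine hearts, a ratio of 1.26 without overlap, beside the 0.587 of all genes. Rpph1 was at 70.2, 117 and 59.0 against 196, 177 and 172, or 2.22-fold. Rn7sk was at 310, 264 and 187 against 513, 534 and 394, or 1.89-fold. On this scale the caffeine hearts lay above the vehicle hearts for Rpph1, Rn7sk, Rmrp (1.86-fold), Rprl3 (1.87-fold) and Snord17 (3.04-fold). They also lay above for Gm25360 (3.22-fold) and Gm24407 (3.53-fold). The groups overlapped for Gm24265, Gm22009 and Gm22513. Scarna2 was at 259, 253 and 372 against 183, 172 and 179, a ratio of 0.604 and so close to the median gene. Gm23119 had a ratio of 0.387. Both lay below in all caffeine hearts, as most genes did on this scale.

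Nuclear-retained long RNAs and histone genes were also looked at. Of 5 nuclear-retained RNAs none was called, 3 were higher and 2 lower, and 1 was higher at an unadjusted p below 0.05. Malat1 was at 0.24 (SE 0.10, adjusted p 0.557 by edgeR's quasi-likelihood test with Benjamini-Hochberg adjustment) and Meg3 at -0.12 (SE 0.54, adjusted p 0.977). Of 64 genes picked by the names of replication-dependent histones, 26 had no count and 9 were fitted. Histone mRNAs of this kind typically carry no poly(A) tail, but whether those counted here lacked one was not measured. The 9 had a median log2 fold change of 0.18, none called and 1 higher at an unadjusted p below 0.05 by edgeR's quasi-likelihood test. Hist1h2be was at 0.39 (SE 0.23, adjusted p 0.672) and Hist1h2bc at 0.28 (SE 0.12, adjusted p 0.557). Whether these lists differ from the small RNA genes was not tested.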

How the data were processed

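Left ventricles of 6 mice were profiled by RNA-seq, with 1 library per heart and groups taken from the labels. The authors selected poly(A) RNA, built libraries of about 200 nt fragments with a kit that does not mark strand, sequenced single reads of 75 bases, aligned them to mm10 with TopHat2 and ran HTSeq with the Ensembl 79 gene models. The settings of the counting are not given in the sources used here. The deposited values are raw counts per gene, unnormalized.

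Gene classes, positions and sequences were taken from GENCODE M21 (GRCm38). This release stands in for Ensembl 79, and 1081 of the 43629 gene identifiers had no entry in it, 93 of them with 10 or more counts. Genes passing filterByExpr (minimum count 10, minimum total 15) were fitted with edgeR 4.0.16 (TMM scaling, glmQLFit, then glmQLFTest), the model holding treatment alone, and p-values were adjusted by Benjamini-Hochberg over all 13092 genes. A standard error is the absolute log2 fold change divided by the square root of F. Replicates varied by 12.1% beyond counting noise (common dispersion 0.0145). Fits were tested on simulated data. Replicates of a group differed beyond sampling noise (chi-square per degree of freedom 5.71 to 15.1), so none was counted as a duplicate. Sequence identity came from edit distances (edlib 1.3.9), and near copies are genes at 90% identity or more. Floors of 3 counts cover counting error only.

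Members, lists and named genes were chosen with earlier results of these data known. Named were called members, the 15 with the highest mean CPM, the 3 fitted members of each class with the smallest p, a list of well-known small RNAs, members at the threshold, and, in each gene list, called genes and the 2 genes of largest absolute fold change. The lists were proteins of RNase P and MRP, 7SK and P-TEFb, signal recognition particle, snoRNA particles, spliceosomal particles, RNA polymerase III and Y RNA, then snoRNA hosts, nuclear-retained RNAs, rRNA-collecting genes and histones. Alternatives were another test (exact, DESeq2 1.42.0, limma-voom 3.58.1), another scaling, other filters, a replicate block and leaving out each heart. Setting the sums against rRNA-collecting genes was added after the data were seen.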

Additional observations from a re-analysis of the deposited data

How the results depend on the processing

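The 11 genes of the whole table called higher became 61 by edgeR's exact test, 39 by DESeq2, 145 with no filter, 29 with a replicate block and 4 to 17 with 1 heart left out. The 3 called lower became 33, 28, 95 and 11 under the same 4 settings, 15 with library size only, 6 with a sum of 10 counts and 0 to 13 with 1 heart left out. The 1 small RNA gene called higher became 8 (exact), 6 (DESeq2), 9 (no filter), 3 (library size only), 2 (sum of 10 counts), 2 (10 counts in every heart), 3 (replicate block) and 0 to 2 with 1 heart left out, and the number called lower stayed at 0 in all of these. The 1 gene called in the lists, Gm26917, stood against 5 by the exact test, 6 with the replicate block and 0 to 5 with 1 heart left out. The backgrounds are 0.466% higher and 0.252% lower by the exact test, 0.298% and 0.214% by DESeq2, 0.222% and 0.084% with the block, 0.647% and 0.424% with no filter, 0.0917% and 0.115% with library size only, 0.074% and 0.037% with a sum of 10 counts, and 0.0902% and 0.0246% with 10 counts in every heart. Over all fitted genes, same-numbered hearts did not deviate together (r 0.045, -0.03 and -0.0375). The share of rRNA-collecting counts and the summed small RNA level fell from heart 1 to heart 3 in each group. Correlations over all genes cannot settle whether the numbers pair the animals, because a pairing could touch only some genes. Per 1000000 counts of rRNA-collecting genes, an alternative chosen after seeing the data, the log2 ratio of the summed means was 1.10 for snRNA, 0.41 for snoRNA, 0.88 for misc_RNA, 1.06 for ribozyme and 0.33 for all 36 genes, and for scaRNA it was -0.67. This scale shifts every gene, and the median log2 ratio of all fitted genes on it was -0.77. Scarna2 turned to -0.02 with library size only, -0.02 without vehicle 2 and -0.07 without caffeine 1, with a range of -0.07 to 0.15 when 1 heart was left out. Over the 12 fitted small RNA genes and these settings, 143 values kept direction and side of the threshold, 27 newly passed it, 2 lost it (both Rpph1) and 3 turned. Some of the 27 came from the fit with no filter, where adjusted p-values were far smaller. There Gm22513, with counts of 77, 58 and 2 in caffeine hearts, had an adjusted p of 2.49e-18. It was 0.29 with the filter, both by edgeR's quasi-likelihood test with Benjamini-Hochberg adjustment. Calls of the fit with no filter should therefore be read with care. The cause of the small RNA difference was not tested. Low counts, near copies and 3 hearts per group limit these values.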
